A study of Mus musculus with 10 samples.

Results

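The MYC, MAX and MXD network is a group of related transcription factors, and its 10 member genes described here are Myc, Mycn, Mycl, Max, Mxd1, Mxd3, Mxd4, Mxi1, Mnt and Mlx. They were chosen by name. Each had 1 probe set among the 24704 genes measured, so all 10 members could be followed across the study. The tissue was liver sinusoidal endothelium, the fenestrated lining of the liver's capillaries, taken from mice. In the 5 Gata4-LSEC-KO samples, a Clec4g-icre transgene of C57BL/6N mice (a recombinase under control sequences of Clec4g, a gene of sinusoidal endothelium) was combined with floxed Gata4, the gene of a zinc finger transcription factor. The 5 control samples came from siblings that the labels call WT, with no further genotype. Every sample of both groups pooled the livers of 3 mice and was enriched with beads against CD146, the product of Mcam, after collagenase digestion and a density gradient. The labels state neither sex, age nor batch. The values are log2 intensities of Affymetrix arrays after RMA, so a difference of 1 is a doubling of the array value, and "knockout" below means the Gata4-LSEC-KO label.

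MYC proteins do not bind DNA alone. They pair with MAX through a helix-loop-helix leucine zipper domain, and the pair binds E-box sequences and raises transcription of genes for growth, metabolism and division. The MXD proteins (MXI1 among them) and MNT also pair with MAX at E-boxes but recruit SIN3 corepressor complexes, so they oppose MYC. MLX is a second hub, which pairs with some MXD proteins, with MNT and with the glucose-sensing factors MondoA (Mlxip) and ChREBP (Mlxipl). In quiescent endothelium MYC is known to be held low, and FOXO1 is known to take part in that through MXI1.

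The markers of the labelled cell type were present, beside those of other liver cells. All 8 sinusoidal markers and all 8 pan-endothelial markers had mean values above the array median of 3.70, as did all 11 hepatocyte, 9 macrophage and 9 stellate cell markers measured. The sinusoidal list averaged 10.45 to 10.81 in the knockout arrays and 10.93 to 11.14 in the control arrays. Of the 8 sinusoidal markers 3 fell (Clec4g, Ctsl and Gpr182) and 0 rose, and 6 had an unadjusted p under 0.05. Of the pan-endothelial ones 0 passed in limma and 1 had an unadjusted p under 0.05. The probe set of Gata4 gave 8.59 ± 0.24 in knockout arrays and 8.71 ± 0.15 in control arrays (SD, n = 5 each). Where its probes lie relative to the deleted part is unknown here, so this value checks no label. Control replicate 1 stood apart, with correlations across genes of 0.919 to 0.944 against the other arrays, while those 9 correlated among themselves at 0.969 to 0.988. Where its absence moved the difference of a member or of a list gene named by rule by more than 1.5 times, the value without it is given.

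Of the 10 network members, Myc rose in the knockout and the other 9 did not pass the threshold, an adjusted p of 0.05 in limma with all genes in the fit. Over all genes 2.14% passed in either direction 1.30% passed upward and 0.846% downward. Myc, the network's activator in growing and dividing cells, read 7.57, 7.07, 6.72, 6.86 and 6.73 in knockout replicates 1 to 5, against 5.01, 5.05, 5.65, 5.29 and 5.45 in control replicates 1 to 5. Every knockout value lay above every control value, and the lowest knockout array was more than 1 log2 unit above the highest control array. The group means were 6.99 ± 0.35 and 5.29 ± 0.27 (SD, n = 5 each). The log2 difference was 1.70 ± 0.18 (SE), with a 95% interval from 1.30 to 2.10 and an adjusted p of 0.000732 by limma. That is a 3.25-fold higher array value, with an interval from 2.46-fold to 4.3-fold. By p, Myc ranked 40 among the 24704 genes. In a bulk sample, more Myc RNA per cell and more cells with Myc RNA cannot be told apart.

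**Figure D1:**
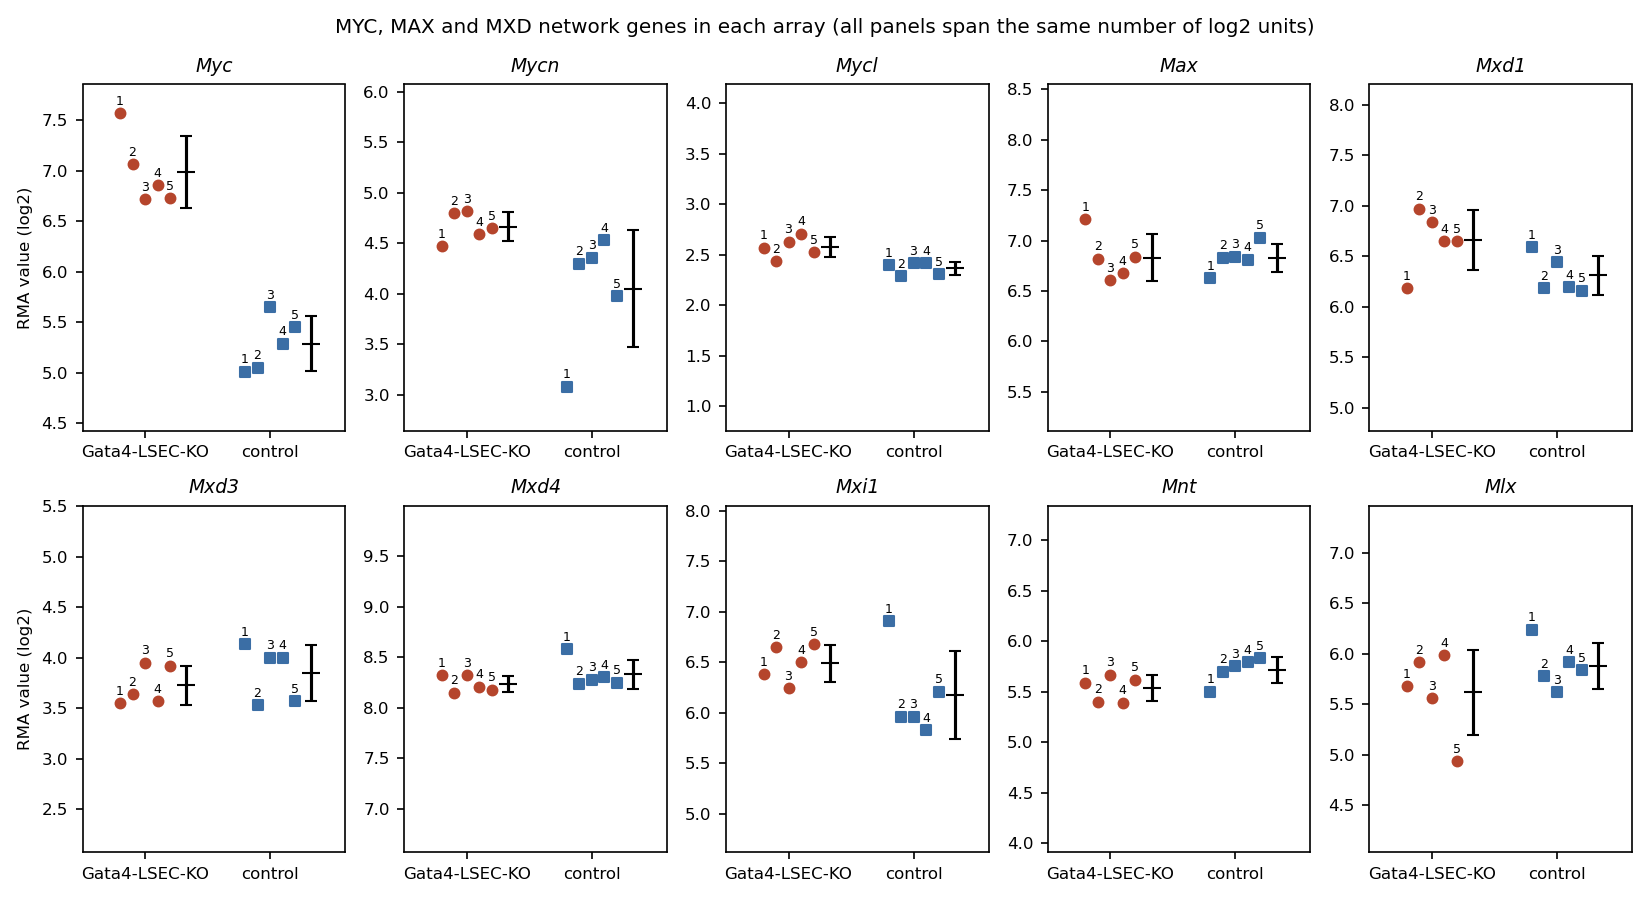
RMA values (log2, y axis) of the 10 network genes in each array, with knockout arrays as circles on the left and control arrays as squares on the right of each panel. Small digits are replicate numbers, and bars are the mean ± SD of 5 arrays. Myc is the member whose groups stand far apart (6.99 against 5.29), while Max has the same mean of 6.83 in both groups.

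The height of Myc differed among the knockout arrays. Replicate 1 was highest at 7.57 and replicate 3 lowest at 6.72. Leaving out each array in turn gave log2 differences of 1.56 (without knockout replicate 1) to 1.79 (without control replicate 3), and adjusted p-values of at most 0.00335. Without control replicate 1 the difference was 1.63.

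Several marker lists moved with the groups, and their values stand here beside that of Myc. For their counts, 2.14% of all genes passed, 13.6% had an unadjusted p under 0.05 in limma and 44.8% had a difference above 0. Of 12 neutrophil markers 7 rose, the granule and secreted protein genes S100a8, S100a9, Ltf, Ngp, Retnlg, Lcn2 and Mmp8, and 0 fell. The list mean was 4.39, 6.06, 4.79, 5.55 and 4.71 in knockout replicates 1 to 5, against 3.12, 3.41, 3.73, 3.21 and 3.22 in control replicates 1 to 5. The knockout array with the highest Myc, replicate 1, had the lowest neutrophil mean of its group. Knockout replicate 2 had the highest neutrophil mean and the next highest Myc value, 7.07. Among the controls, replicate 1 had the lowest neutrophil mean and the lowest Myc value, 5.01. The part of neutrophils in the Myc difference was not tested. With the neutrophil list mean as a covariate the Myc difference was 1.74 ± 0.42 (SE), but its adjusted p became 0.568. In that fit 0 of the 24704 genes passed in limma, where 1159 had an unadjusted p under 0.05.

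Myc is also an immediate early gene, so the list of dissociation and immediate early genes is set beside it. In that list 1 of 14 genes passed, Nr4a1, 3 had an unadjusted p under 0.05, and all 14 had a difference above 0. In that order these are 7.14%, 21.4% and 100%, against 2.14%, 13.6% and 44.8% over all genes. The list mean was 8.40, 8.48, 7.96, 7.81 and 7.76 in knockout replicates 1 to 5, against 7.36, 8.30, 7.39, 7.26 and 7.72 in control replicates 1 to 5. These groups overlapped. Control replicate 2, with a list mean of 8.30, had a Myc value of 5.05, below that of every knockout array. Within the knockout, replicates 1 and 2 had the highest list means (8.40 and 8.48) and also the highest Myc values (7.57 and 7.07). The part of dissociation in the Myc difference was not tested. With the dissociation list mean as a covariate the Myc difference was 1.62 ± 0.23 (SE, adjusted p = 0.0112).

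The list of proliferation markers had 1 of 13 genes past the threshold, Ccna2, 8 had an unadjusted p under 0.05, and all 13 lay above 0. In that order these are 7.69%, 61.5% and 100%, against 2.14%, 13.6% and 44.8% over all genes. The proliferation list mean ranged from 5.07 to 5.68 in the knockout arrays and from 4.59 to 5.04 in the control arrays. With it as a covariate the Myc difference was 1.94 ± 0.30 (adjusted p = 0.035), and with the hepatocyte list mean it was 1.65 ± 0.16 (adjusted p = 0.000717). In the cholangiocyte list 1 of 7 measured markers passed, Tm4sf4, all 7 had an unadjusted p under 0.05, and the median log2 difference was 1.42. Its mean was 4.44 to 6.60 in the knockout, highest in replicates 2 and 1, against 3.44 to 4.48 in the control. Its part in the Myc difference was not tested.

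**Figure D2:**
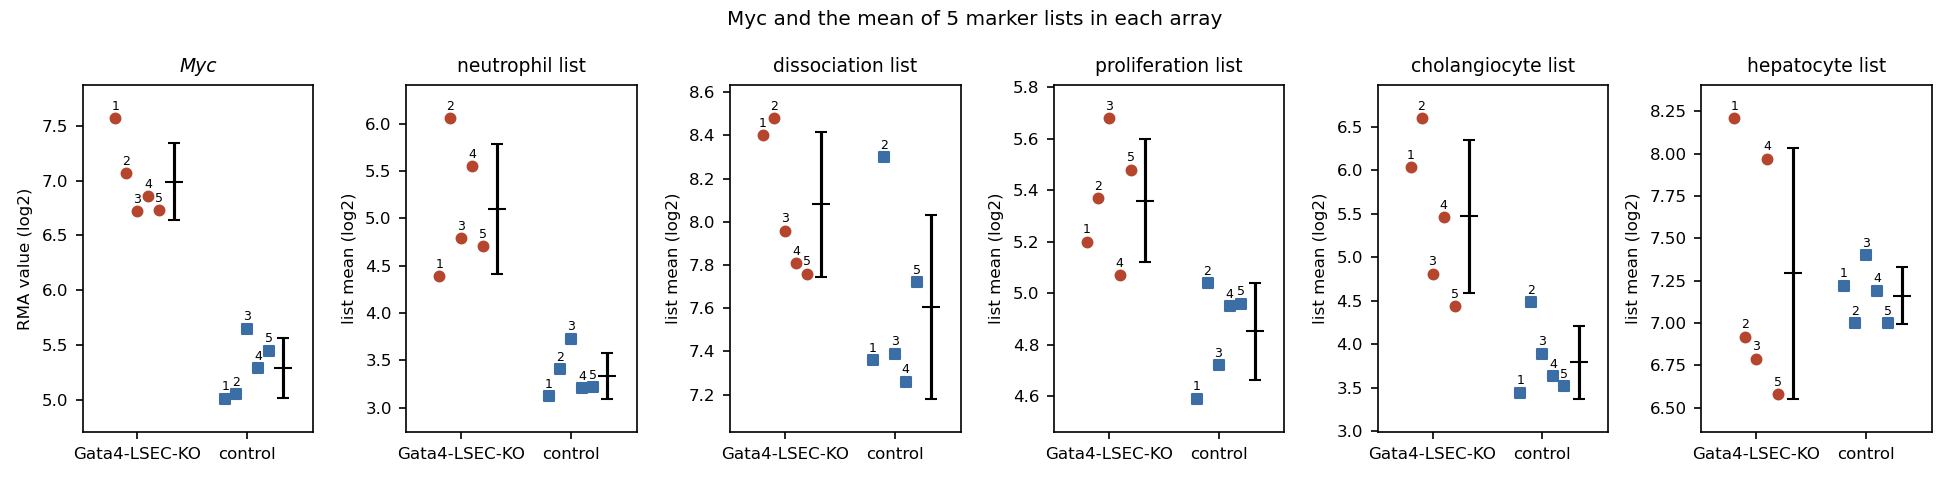
Myc (leftmost panel, RMA value in log2) and the mean log2 value of 5 marker lists (other panels) in each array, knockout as circles on the left and control as squares on the right. Digits are replicate numbers and bars the mean ± SD of 5 arrays. The neutrophil and proliferation means do not overlap between the groups, the dissociation means do.

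Among the lists of other immune cells, 0 of 9 macrophage markers and 0 of 9 T and NK cell markers passed in limma, where 0 and 1 had an unadjusted p under 0.05. In the dendritic cell list Cd209a rose, the 1 call among 8, and in the B and plasma cell list Jchain rose, the 1 call among 6. The stellate cell list had 0 calls among 9 (4 at an unadjusted p under 0.05) and the erythroid list 0 among 4 (0 unadjusted). Cd209a and Jchain were named after their values were seen.

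**Figure D3:**
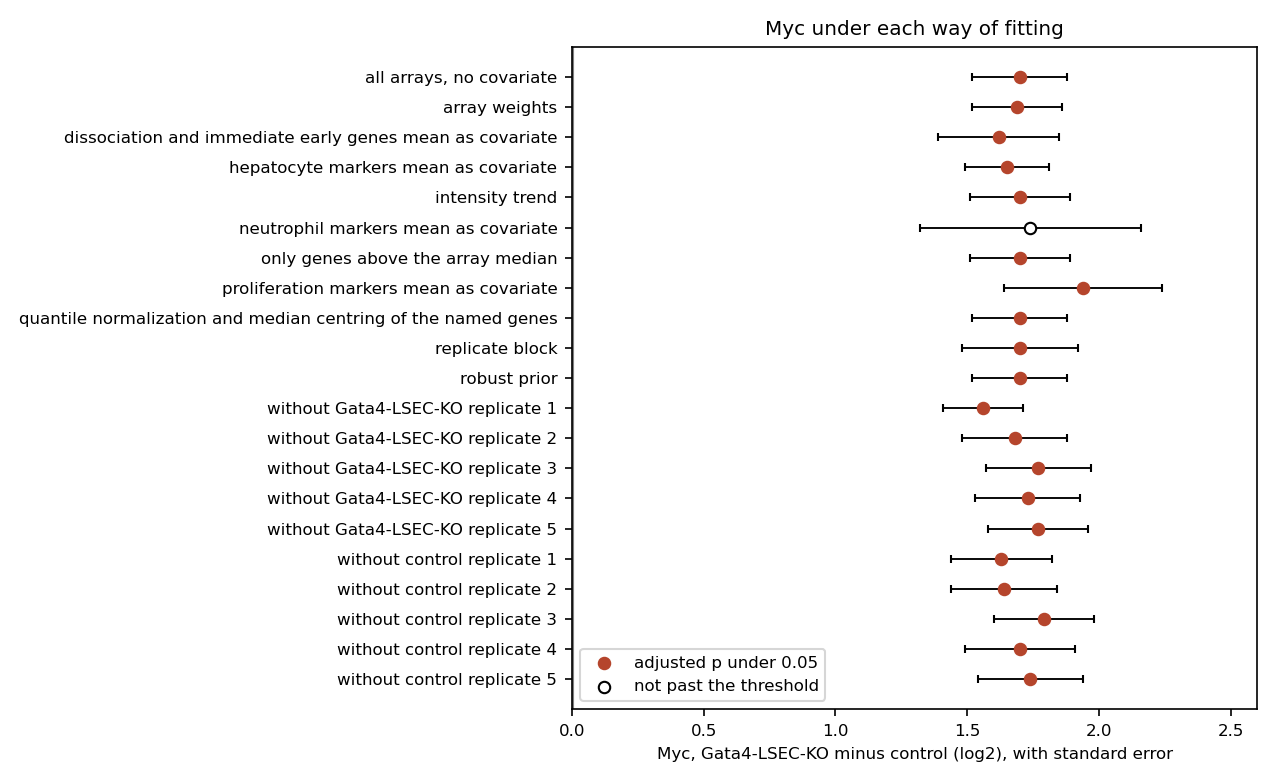
Log2 difference of Myc between knockout and control (x axis, bars are the standard error) under each of 20 other ways of fitting and under the fit with all arrays and no covariate at the top. Filled points passed an adjusted p of 0.05. The estimates lie between 1.56 and 1.94, and the open point is the fit with the neutrophil mean as a covariate, at 1.74.

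The other MYC genes did not pass. Mycn, the paralogue known from neural and embryonic tissue, read 4.47, 4.80, 4.82, 4.59 and 4.65 in knockout replicates 1 to 5, against 3.08, 4.30, 4.36, 4.53 and 3.98 in control replicates 1 to 5. Of the knockout arrays 4 lay above all controls, and replicate 1 lay below control replicate 4. Its log2 difference was 0.62 ± 0.24 (SE, 95% interval 0.10 to 1.13, adjusted p = 0.261 by limma). It depended on control replicate 1, whose value of 3.08 was the lowest of all arrays, and was 0.37 ± 0.13 without it (adjusted p = 0.174). It was 0.06 ± 0.35 with the proliferation mean and 0.22 ± 0.52 with the neutrophil mean as a covariate.

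Mycl, the paralogue known from dendritic cells and lung tumours, had values below the array median in every array. It read 2.57, 2.44, 2.63, 2.71 and 2.53 in the knockout arrays, against 2.40, 2.29, 2.42, 2.42 and 2.31 in the control arrays. The groups did not overlap, but the gap between them was smaller than the spread within either. Between the means lay 0.21 ± 0.09 on the log2 scale (SE, adjusted p = 0.344). Of the 10 members, Myc and Mycl were the 2 whose groups did not overlap, where 4.93% of all genes had groups that did not. At an unadjusted p under 0.05 the members were Myc, Mycn, Mycl and Mxd1, 4 of 10, where 13.6% of all genes lay there.

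Max, the partner that every MYC protein needs, had the same mean in both groups. It read 7.21, 6.82, 6.61, 6.68 and 6.84 in knockout replicates 1 to 5, against 6.63, 6.83, 6.84, 6.81 and 7.03 in control replicates 1 to 5. The highest and the lowest of the 10 values were both knockout arrays. Knockout minus control was 0.01 ± 0.13 on the log2 scale (SE, adjusted p = 0.994), with a 95% interval from -0.28 to 0.29, or 0.825-fold to 1.22-fold. The array value of Myc relative to Max within an array was -0.11 to 0.36 in the knockout and -1.78 to -1.19 in the control. These ranges of log2 differences did not overlap, and their group means were 1.70 apart, which is the rise of Myc itself.

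**Figure D4:**
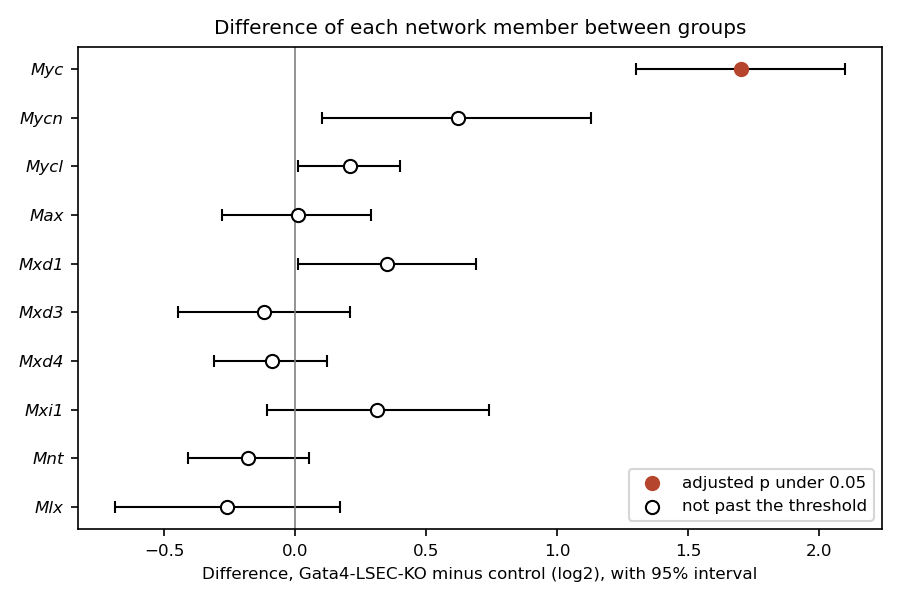
Log2 difference of each network member between knockout and control (x axis) with its 95% interval from limma. The filled point, Myc at 1.70, passed an adjusted p of 0.05, and the open points did not.

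The E-box that MYC and its partners bind was searched for in promoter windows of RefSeq (build GRCm38.p6), which run from 250 bases before to 50 bases after a listed start. The table held 11 windows of 9 members, all but Myc. The canonical E-box, CACGTG, which reads alike on both strands, was present in 4 of the 11, those of Max, Mlx, Mnt and Mxd4. Among all 32851 windows 7.15% held it. It began at position -3 in Max, -40 in Mlx, -123 in Mnt and -219 in Mxd4, counting back from the start on the gene's strand. These windows are shown because they are the members' own E-boxes, in genes whose difference did not pass; the E-box is in capitals.
Max, chr12:76962199-76962498, minus strand: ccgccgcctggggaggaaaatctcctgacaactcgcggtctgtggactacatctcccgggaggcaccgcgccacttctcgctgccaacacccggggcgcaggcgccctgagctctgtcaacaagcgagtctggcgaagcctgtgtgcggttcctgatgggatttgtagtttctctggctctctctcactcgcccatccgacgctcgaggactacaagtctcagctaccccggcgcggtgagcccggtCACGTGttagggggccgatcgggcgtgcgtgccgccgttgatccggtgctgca
Mlx, chr11:101087040-101087339, plus strand: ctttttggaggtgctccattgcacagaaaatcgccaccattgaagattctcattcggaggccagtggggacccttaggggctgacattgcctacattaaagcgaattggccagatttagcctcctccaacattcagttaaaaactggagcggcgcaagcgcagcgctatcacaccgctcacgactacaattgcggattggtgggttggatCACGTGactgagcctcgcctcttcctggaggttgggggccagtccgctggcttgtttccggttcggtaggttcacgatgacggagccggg
Mnt, chr11:74830674-74830973, plus strand: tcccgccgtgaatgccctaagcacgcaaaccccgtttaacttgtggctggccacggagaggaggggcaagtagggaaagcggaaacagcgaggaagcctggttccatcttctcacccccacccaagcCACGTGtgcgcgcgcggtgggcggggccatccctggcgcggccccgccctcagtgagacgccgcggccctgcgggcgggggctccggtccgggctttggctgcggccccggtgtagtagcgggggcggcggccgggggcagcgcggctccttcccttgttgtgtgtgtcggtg
Mxd4, chr5:34187661-34187960, minus strand: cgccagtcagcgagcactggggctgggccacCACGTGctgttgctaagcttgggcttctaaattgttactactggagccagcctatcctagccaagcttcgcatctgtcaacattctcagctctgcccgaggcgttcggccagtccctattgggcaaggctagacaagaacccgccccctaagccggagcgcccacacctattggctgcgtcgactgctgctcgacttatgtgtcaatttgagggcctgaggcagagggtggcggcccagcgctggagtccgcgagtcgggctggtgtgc
A match is a string of letters and not a measured binding site.

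Other motifs were looked for on both strands of the same 11 windows. The E-box variants CACGCG and CATGTG were in 2 windows, 1 each of Mxi1 and Mycl, where 22.8% of all windows held either. The FOXO motifs TGTTTAC and TGTTTAT were in 2 windows, 1 each of Mxd1 and Mxi1, where 7.97% of all windows held either. The GATA motifs AGATAA and TGATAA were in 0 of the 11, where 18.6% of all windows held either. Each E-box variant differs from the canonical E-box at 1 base and was counted apart from it.

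The antagonists did not pass in either direction. Mxd1, a repressor that rises as myeloid and epithelial cells differentiate, read 6.18, 6.97, 6.84, 6.65 and 6.65 in knockout replicates 1 to 5, against 6.59, 6.18, 6.44, 6.19 and 6.16 in control replicates 1 to 5. Of the knockout arrays 4 lay above all controls, while replicate 1 was at the level of the lower controls. The log2 difference was 0.35 ± 0.16 (SE, 95% interval 0.01 to 0.69, adjusted p = 0.354). Within the knockout, the highest Mxd1 value and the highest neutrophil mean were both in replicate 2, and the lowest of both were in replicate 1. Knockout replicate 3 had more Mxd1 than replicate 4 (6.84 against 6.65) at a lower neutrophil mean (4.79 against 5.55). Among the controls, replicate 1 had the highest Mxd1 value (6.59) and the lowest neutrophil mean (3.12). The part of neutrophils in the Mxd1 difference was not tested. With the neutrophil mean as a covariate the Mxd1 difference was -0.14 ± 0.31.

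Mxi1, the MXD family repressor that FOXO factors are known to induce, read 6.38, 6.65, 6.24, 6.50 and 6.68 in knockout replicates 1 to 5, against 6.91, 5.96, 5.96, 5.83 and 6.21 in control replicates 1 to 5. Control replicate 1 was the highest of all 10 arrays, and the other 4 controls lay below every knockout array. With all arrays the log2 difference was 0.31 ± 0.19 (SE, adjusted p = 0.536). Without control replicate 1 it was 0.50 ± 0.12, with an adjusted p of 0.0564, which still missed the threshold.

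The differences of Mxd4 and Mxd3 were small and did not pass. Mxd4, a repressor of resting and differentiated cells, was the member with the least spread among the knockout arrays, at 8.32, 8.15, 8.32, 8.21 and 8.18 in knockout replicates 1 to 5, against 8.58, 8.24, 8.28, 8.30 and 8.25 in control replicates 1 to 5. Its log2 difference was -0.09 ± 0.10 (SE, 95% interval -0.31 to 0.12), and -0.03 without control replicate 1. Mxd3, a family member known from the S phase of proliferating cells, read 3.55, 3.64, 3.95, 3.57 and 3.92 in the knockout arrays, against 4.13, 3.53, 4.00, 4.00 and 3.57 in the control arrays. These values were close to the array median and interleaved, with a log2 difference of -0.12 ± 0.15 (adjusted p = 0.783). It was -0.05 without control replicate 1 and -0.20 without control replicate 2.

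Mnt, the broadly expressed antagonist that competes with MYC for MAX, read 5.59, 5.40, 5.67, 5.39 and 5.62 in knockout replicates 1 to 5, against 5.50, 5.70, 5.75, 5.79 and 5.83 in control replicates 1 to 5. All controls but replicate 1 lay above every knockout array. Its log2 difference was -0.18 ± 0.10 (SE, adjusted p = 0.514), and -0.23 ± 0.10 without control replicate 1 (adjusted p = 0.291). Relative to Mnt, the array value of Myc was 1.06 to 1.98 in the knockout and -0.65 to -0.09 in the control, as log2 differences within each array. In the same way Myc was set against each of the other 9 members. The ranges did not overlap between the groups for 8 of the 9, and for Mycn they met, at 1.90 to 3.10 in the knockout and 0.74 to 1.93 in the control. Every such range holds the rise of Myc itself, so this count is not a result about the other members. How many of all genes would give ranges apart in this way was not counted.

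Mlx, the hub of the MondoA and ChREBP branch, read 5.68, 5.92, 5.56, 5.99 and 4.94 in knockout replicates 1 to 5, against 6.24, 5.78, 5.62, 5.92 and 5.84 in control replicates 1 to 5. Knockout replicate 5 was the lowest array. Replicate 3 also lay below every control array, and the other knockout arrays interleaved with the controls. The log2 difference was -0.26 ± 0.20 (SE, adjusted p = 0.622), -0.09 without knockout replicate 5 and -0.17 without control replicate 1. The list of MAX and MLX partners outside the members held 3 genes, Mga, Mlxip and Mlxipl. It gave 0 calls in limma, and 0 of its genes had an unadjusted p under 0.05. Mlxip (MondoA) averaged 7.30 ± 0.11 in the knockout and 7.50 ± 0.10 in the control, a difference of -0.20 ± 0.10 (adjusted p = 0.409), with SDs over 5 arrays each. Mlxipl (ChREBP) averaged 4.41 ± 0.28 in the knockout and 4.62 ± 0.44 in the control, a difference of -0.21 (adjusted p = 0.724) that was -0.02 without control replicate 1.

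Of 6 known MondoA and ChREBP targets, 1 fell and 5 did not pass. The 1 call is 16.7% of this short list, against the 2.14% over all genes. Khk, ketohexokinase, the entry enzyme of fructose metabolism, read 5.10, 5.10, 5.07, 5.75 and 5.51 in knockout replicates 1 to 5, against 6.72, 6.23, 5.90, 6.11 and 6.20 in control replicates 1 to 5. All knockout values lay below all control values. Its log2 difference was -0.92 ± 0.18 (SE, adjusted p = 0.0224). Leaving out 1 array removed the call for knockout replicates 1, 2 and 3 and for control replicates 2 and 5 (highest adjusted p 0.0682). The call was also lost with the neutrophil, dissociation or proliferation mean as a covariate, where the difference was -0.87, -0.80 and -0.59 in that order. Khk is a hepatocyte gene. The hepatocyte list mean was 6.58 to 8.21 in the knockout and 7.00 to 7.40 in the control, and 1 of its 11 measured markers, Cyp2e1, was called, as lower. With that mean as a covariate Khk was at -0.93 (adjusted p = 0.0358).

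Lists of proteins that work with the network had few calls. Of 15 measured coactivators and partners of MYC 0 passed, with a median log2 difference of 0.05 against -0.02 over all genes. The lowest p in that list was that of Wdr5, a chromatin adaptor that binds MYC (-0.29 ± 0.13, adjusted p = 0.373), followed by the acetyltransferase gene Ep300 (0.31 ± 0.19, adjusted p = 0.524), which was at 0.13 without control replicate 1. Of 8 measured corepressor genes of MXD and MNT complexes 0 passed. The deacetylase gene Hdac2 (0.27 ± 0.12, adjusted p = 0.365) and Arid4b, a subunit of the SIN3 complex (0.36 ± 0.16, adjusted p = 0.374), had the lowest p. Arid4b was at 0.19 without control replicate 1. Of 17 measured genes that act on MYC protein turnover 0 passed. Aurka, a mitotic kinase known to protect MYC proteins from degradation, had a difference of 0.30 ± 0.17 (adjusted p = 0.496), and 0.16 without knockout replicate 3. Set, an inhibitor of the phosphatase PP2A, was at 0.20 ± 0.11 (adjusted p = 0.5). Counts of 0 stand beside 0, 1 and 0 genes with an unadjusted p under 0.05 in these 3 lists. The 1 gene was Hdac2.

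Among 17 genes known to act on Myc transcription, 2 rose and 15 did not pass. The calls are 11.8% of the list, against the 2.14% over all genes. At an unadjusted p under 0.05 there were 4 (23.5%, against the 13.6% over all genes). Fubp1, which binds the far upstream element of Myc and activates it, read 7.80, 7.34, 7.37, 7.24 and 7.47 in knockout replicates 1 to 5, against 6.79, 7.04, 6.78, 6.88 and 6.95 in control replicates 1 to 5. Smad3, the TGF-beta signal transducer through which Myc can be repressed, read 6.25, 6.43, 6.84, 6.13 and 6.40 in knockout replicates 1 to 5, against 5.72, 5.71, 5.89, 5.90 and 5.76 in control replicates 1 to 5. Neither gene's groups overlapped. The log2 differences were 0.56 ± 0.12 for Fubp1 (adjusted p = 0.0379) and 0.61 ± 0.13 for Smad3 (adjusted p = 0.0387). Both calls lay close to the threshold. When 1 array was left out, Fubp1 still passed in 2 of 10 cases (knockout replicate 4, control replicate 1), with a highest adjusted p of 0.099. Smad3 passed in 3 of 10 (knockout replicates 3 and 4, control replicate 1), with a highest adjusted p of 0.0971. Both calls were also lost with a list mean as a covariate. The difference of Fubp1 was then 0.93 (neutrophil), 0.44 (dissociation), 0.48 (proliferation) and 0.54 (hepatocyte). That of Smad3 was 0.69 (neutrophil), 0.66 (dissociation) and 0.28 (proliferation), and with the hepatocyte mean it still passed, at 0.64. Foxo1, the endothelial repressor of Myc named above, averaged 7.03 in the knockout and 7.01 in the control, a log2 difference of 0.02 ± 0.13, and was named after its value was seen.

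Few textbook MYC targets passed the threshold. Of 41 genes that MYC is known to induce, 1 rose, 1 fell and 39 did not pass, which is 4.88% of the list against the 2.14% over all genes. The list's median log2 difference was 0.21, against -0.02 over all genes, and 31 of the 41 lay above 0 (75.6%, where 44.8% of all genes did). At an unadjusted p under 0.05 there were 12 (29.3%, against the 13.6% over all genes). The list was chosen with earlier results of these arrays known, so its direction is no independent evidence.

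Pa2g4, a growth regulator that binds ribosomes, was the induced target that rose. It read 7.88, 8.01, 7.69, 7.62 and 7.72 in knockout replicates 1 to 5, against 7.30, 7.25, 7.27, 7.19 and 7.06 in control replicates 1 to 5, with no overlap. Its log2 difference was 0.57 ± 0.11 (SE, adjusted p = 0.0178), and its call was lost when control replicate 4 (adjusted p = 0.0504) or 5 (adjusted p = 0.0554) was left out. The call was also lost with the neutrophil (0.43), dissociation (0.50) or proliferation mean (0.63) as a covariate. Slc7a5, a large neutral amino acid transporter that MYC induces in lymphocytes and tumours, went the other way. It read 7.32, 7.46, 7.67, 7.32 and 6.89 in knockout replicates 1 to 5, against 8.42, 8.47, 8.42, 8.72 and 8.35 in control replicates 1 to 5, with no overlap. Its log2 difference was -1.14 ± 0.14 (adjusted p = 0.00157), a fall that held without each array in turn (-1.23 to -1.03, adjusted p up to 0.00666). With the neutrophil or proliferation mean as a covariate its call ended, at -1.28 and -1.27.

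The classic induced targets spanned a wide range among those that did not pass. Ornithine decarboxylase, Odc1, averaged 5.64 in the knockout and 5.41 in the control, a log2 difference of 0.22 ± 0.23. Nucleolin, Ncl, had 0.28 ± 0.11 and the kinase gene Cdk4 0.19 ± 0.10. The nucleolar protein gene Nop58 had 0.61 ± 0.16 with groups that did not overlap and an adjusted p of 0.0794. The mitochondrial folate enzyme gene Mthfd2 had the highest difference of the list, 0.81 ± 0.27 (adjusted p = 0.18). Slc3a2, whose product forms the transporter together with that of Slc7a5, had -0.26 ± 0.17 (adjusted p = 0.556). These 6 genes were named after their values were seen.

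In the list of 10 genes that MYC is known to repress, 1 rose and 9 did not pass. The 1 call is 10% of this short list, against the 2.14% over all genes. Cdkn1a, which encodes the cell cycle inhibitor p21, read 7.36, 7.29, 7.35, 7.12 and 7.46 in knockout replicates 1 to 5, against 6.04, 5.98, 6.26, 5.93 and 6.21 in control replicates 1 to 5. The 10 values formed groups far apart, and the log2 difference was 1.23 ± 0.11 (SE, adjusted p = 0.000191), a 2.35-fold higher array value. It held without each array in turn (1.19 to 1.28, adjusted p up to 0.00111) and did not pass with the neutrophil mean as a covariate (1.35, adjusted p = 0.233). Cdkn1c, another inhibitor of the same family, was at -0.59 ± 0.18 with groups that did not overlap and an adjusted p of 0.14; it was named after its value was seen. The median of the list was 0.01.

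**Figure D5:**
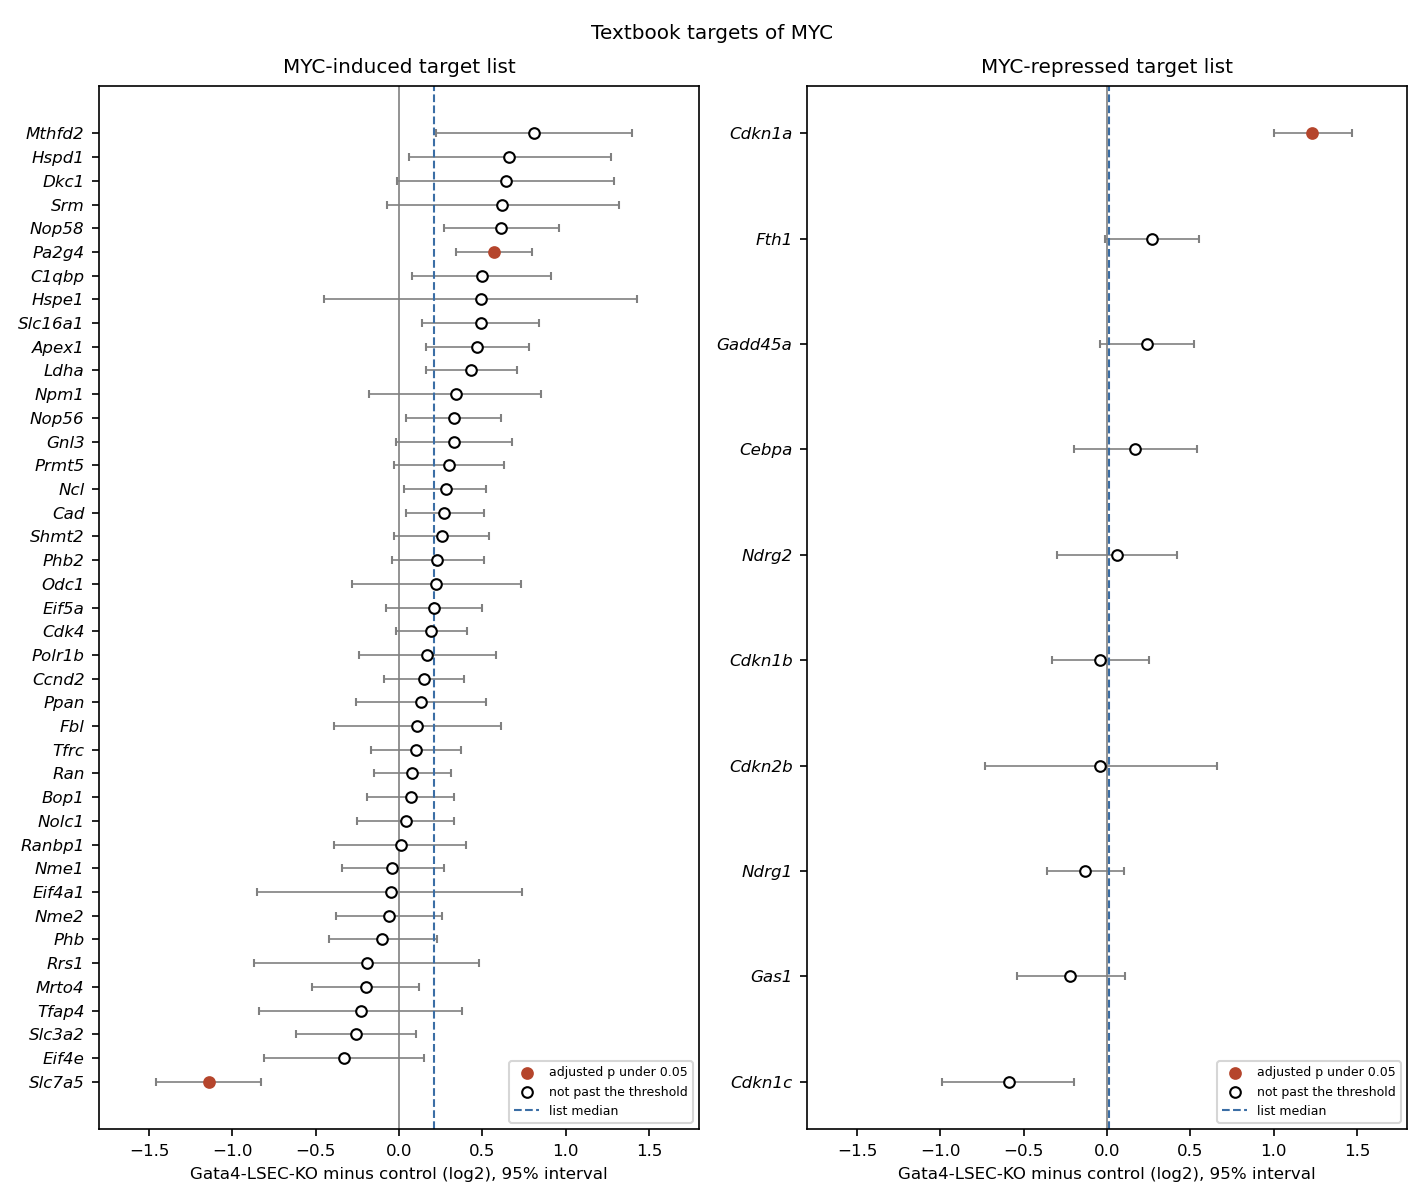
Log2 difference between knockout and control (x axis, bars are 95% intervals from limma) of 41 genes known to be induced by MYC (left) and 10 known to be repressed by it (right), each sorted by value. Filled points passed an adjusted p of 0.05: Pa2g4 at 0.57, Slc7a5 at -1.14 and Cdkn1a at 1.23. Dashed lines are the list medians, 0.21 and 0.01.

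The E-box was counted in the promoter windows of both lists as well, after the members had been examined. It was in 14 of 44 windows of the induced targets (31.8%) and in 0 of 12 windows of the repressed targets, against the 7.15% over all windows. These are counts without a test. Whether the lists differ was not tested, and 12 windows are few. The induced genes that held the E-box numbered 11 of 33 with a window. Apex1, Cdk4, Eif5a, Hspd1, Ldha, Ran and Slc16a1 had log2 differences above 0 (0.08 to 0.66), and Eif4a1, Eif4e, Nme1 and Phb below 0 (-0.33 to -0.04), and none of the 11 passed. Pa2g4 was not among them, and neither window of Cdkn1a held it.

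The genes with the pattern most like that of Myc were found among 19828 genes (predicted genes, RIKEN and clone names, microRNA and snoRNA genes left out) by centring each on its own mean and taking the root mean squared difference from Myc over the 10 arrays. The median of these genes was 0.93 log2 units from Myc. The 5 closest were Plscr2, a phospholipid scramblase family gene (0.22), Rgs2, a regulator of G protein signalling (0.28), the nuclear receptor gene Pparg (0.30), the neurotensin gene Nts (0.31) and the fatty acid synthase gene Fasn (0.32). Plscr2 read 5.64, 5.66, 5.30, 5.41 and 5.06 in knockout replicates 1 to 5, against 3.58, 3.68, 3.66, 3.93 and 3.80 in control replicates 1 to 5. Like Myc and the dissociation list mean, it was higher in knockout replicates 1 and 2 than in the other 3. Rgs2 and Nts had the same feature. Rgs2 read 7.71 and 7.73 in knockout replicates 1 and 2 and 6.78 to 7.19 in the other 3, against 5.52 to 6.03 in the control arrays. Pparg and Fasn did not have it, as replicate 2 was the lowest knockout array of both (5.79 and 6.14). All 5 genes rose, with log2 differences from 1.26 ± 0.11 for Fasn to 1.69 ± 0.13 for Plscr2 and adjusted p-values of at most 0.0085. The likeness holds the difference between the groups, which all 5 genes share with Myc by this measure. It also holds the order of the arrays within each group, so a shared order is partly fixed by the choice of these genes.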

How the data were processed

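RNA of 10 samples, 5 Gata4-LSEC-KO and 5 control, was hybridised to 1-colour Affymetrix arrays. The values deposited by the authors are log2 values, as their range shows. RMA, with no version, is named per the submitters' processing notes. All arrays shared 1 distribution (differences of at most 0.00186) and were not normalized again. Scanner files and detection calls were not used here, so signal over background is unknown and no other background correction was tried. The number of arrays limits the precision.

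By the platform annotation 24705 of 25428 probe sets had 1 symbol and 0 had more than that, and 723 had no name here. Of the named ones 24673 matched RefSeq by Entrez number and 0 symbols needed an update. The brighter probe set was kept for the 1 symbol with a second, leaving 24704 genes.

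Groups were compared with limma 3.58.1 (R 4.3.3; lmFit and eBayes, 2-sided, all arrays, no covariate, no filter), with p-values adjusted by Benjamini-Hochberg over all genes and a threshold of 0.05. Differences are Gata4-LSEC-KO minus control ± SE. The procedure was tested on simulated data, in 10 runs of 5 against 5 arrays. It called 18% of the genes given a log2 change of 0.5, 74% at a change of 1 and 89.6% at 1.5. Of its calls 5.38% were false. Most changes near 0.5 would thus be missed, so a gene that did not pass is not shown to be unchanged. Samples are pools of 3 mice that the labels number as biological replicates, so p-values measure the spread between pools.

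The 10 members and the 21 lists (8 pathway lists, 13 marker lists) were chosen with earlier results of these data known. The text names all members and Gata4. From each pathway list it names up to 4 genes past the threshold by p, or the 2 lowest p where none passed. It names the 5 genes most like a called member. List genes that were not measured here were left out of counts. Alternatives were a replicate block, an intensity trend, a robust prior, a filter on dim genes, array weights, renewed normalization, 4 list means as covariates and leaving out each array. Same-numbered arrays did not deviate together, so the block stays an alternative.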

Additional observations from a re-analysis of the deposited data

Results flagged for a closer look

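In 4 cases an array lay far from the other 4 of its group, by the size of its gap relative to the group's range, and all 4 were control replicate 1. Mxd4 read 8.58 there, against 8.24 to 8.30 in the other controls. Ep300 read 6.02, against 6.83 to 7.01. Arid4b read 4.61, against 5.35 to 5.60. Pparg read 3.57, against 4.52 to 4.77. The genes examined were the members, the genes named by rule and those most like Myc, which made 60 groups, and chance flags about 1 in 20.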

How the results depend on the processing

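Myc passed in 19 of 20 alternatives, with the neutrophil mean as the exception. The 9 other members gave 179 values under the alternatives, of which 0 passed and 12 had the opposite sign. The count of members past the threshold was 1 with all arrays, 1 without each array in turn and 0 with the neutrophil mean as a covariate, where 1 member had an unadjusted p under 0.05. Over all genes, 529 passed with all arrays. The count was 275 with the replicate block, 1070 with array weights, 147 with the dissociation mean, 71 with the proliferation mean and 0 with the neutrophil mean as a covariate. It was 287 (without control replicate 5) to 737 (without control replicate 1) when an array was left out. Same-numbered arrays shared only a number: their deviations correlated at -0.165 to 0.039. With the replicate block Myc had an adjusted p of 0.0195, and the calls of Khk, Fubp1, Smad3 and Pa2g4 were lost. Opposite signs were found for Max with array weights (-0.04), the hepatocyte mean (-0.01) and the dissociation mean (-0.10). Leaving out each array gave -0.09 to 0.06 for Max, with the sign turned in 2 of 10 cases, without knockout replicate 1 (-0.09) and without control replicate 1 (-0.04). With the neutrophil mean Mxd1 was at -0.14, Mxd3 at 0.04, Mxd4 at 0.09, Mnt at 0.05 and Mlxip at 0.03. With the dissociation mean Mxd3 was at 0.10. With the proliferation mean Mxd4 was at 0.00, Mlx at 0.15, Mlxipl at 0.54 and Ep300 at -0.24. The neutrophil and proliferation means do not overlap between the groups, so these covariates and the groups can be told apart only in part. The causes were not tested. Alternatives for genes outside the members were chosen after seeing the data. With the filter on dim genes, Mycl has no value.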
